A study of Mus musculus with 46 samples.

Results

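The regions described here are 1723 C/EBPα loci of mouse liver that held a peak in both C/EBPα peak lists of animals on a carbohydrate-rich diet (CD) and in neither list of animals on a lipid-rich diet (LD). Overlapping peaks of the 4 lists were merged into 97466 loci in all, so the CD-only loci were 1.77% of them. They are set beside 5045 loci found in both LD lists and no CD list (LD-only loci) and 13813 loci found in all 4 lists. The loci were chosen by the presence of C/EBPα peaks, and their C/EBPα values are therefore given as a description with no test. The lists hold called peaks only and no signal track was used here, so a locus without an LD peak may still carry C/EBPα signal on LD below the authors' threshold.

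Livers came from male C57BL/6 mice, bought at 5 weeks of age, kept for 1 week on chow and then fed for 20 weeks. The LD, labelled as a high fat diet, drew 60% of its energy from fat and 20% from carbohydrate, and the CD, labelled as a low fat diet, drew 10% from fat and 70% from carbohydrate, with 20% from protein in both. C/EBPα and Hnf4α ChIP-seq each had 2 samples per diet, H3K27ac ChIP-seq had 3, RNA-seq had 5, and promoter capture Hi-C (PCHi-C) had 2 per diet that the authors pooled into 1 interaction list per diet. The RNA-seq libraries held 31707963 to 39012699 counted read pairs. No chow-fed group was measured, so neither diet serves as an untreated control.

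C/EBPα is a basic leucine zipper factor that binds DNA as a dimer, keeps hepatocytes differentiated and drives genes of glucose output, urea synthesis and lipid handling in liver. It often shares regulatory elements with Hnf4α, a nuclear receptor of hepatocytes. Acetylation of histone H3 at lysine 27 (H3K27ac) marks active promoters and enhancers, and PCHi-C captures the DNA fragments that lie close to a promoter in the nucleus.

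The central windows of 8 CD-only loci are printed first, in mm9 coordinates on the plus strand, because the results below turn on these places. The first 3 belong to the 8 highest CD-only loci, the next 3 lie near genes with large RNA differences between diets, and the last 2 carried H3K27ac in every CD sample and no LD sample. Capitals mark a match to the C/EBP string TTGCNNAA or to the composite C/EBP-ATF string TGATGCAA on either strand, and a window without capitals held neither. In the last label Ccdc132 and Vps50 are names of the same gene.
Highest locus, intergenic, nearest TSS Hif1a, chr12:74880350-74880549: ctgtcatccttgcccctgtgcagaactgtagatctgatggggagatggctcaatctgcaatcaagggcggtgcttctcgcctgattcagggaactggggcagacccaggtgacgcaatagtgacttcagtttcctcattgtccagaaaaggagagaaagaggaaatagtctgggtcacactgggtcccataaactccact
Locus in an intron of Ppara, chr15:85602206-85602405: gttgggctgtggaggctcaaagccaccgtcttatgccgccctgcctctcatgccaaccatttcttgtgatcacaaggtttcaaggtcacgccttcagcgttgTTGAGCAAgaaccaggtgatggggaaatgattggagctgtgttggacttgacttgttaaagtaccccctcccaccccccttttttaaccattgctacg
Locus in introns of Nsun2 and Srd5a1, chr13:69716122-69716321: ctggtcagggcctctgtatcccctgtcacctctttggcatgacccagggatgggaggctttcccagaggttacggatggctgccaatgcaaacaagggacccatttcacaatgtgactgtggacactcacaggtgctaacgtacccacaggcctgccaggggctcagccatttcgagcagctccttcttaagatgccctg
Locus near Hsd3b5, chr3:98446779-98446978: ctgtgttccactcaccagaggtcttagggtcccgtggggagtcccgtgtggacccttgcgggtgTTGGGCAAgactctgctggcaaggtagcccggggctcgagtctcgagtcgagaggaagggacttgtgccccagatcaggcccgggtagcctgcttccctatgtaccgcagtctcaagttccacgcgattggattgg
Locus near Serpina11 and Serpina9, chr12:105231324-105231523: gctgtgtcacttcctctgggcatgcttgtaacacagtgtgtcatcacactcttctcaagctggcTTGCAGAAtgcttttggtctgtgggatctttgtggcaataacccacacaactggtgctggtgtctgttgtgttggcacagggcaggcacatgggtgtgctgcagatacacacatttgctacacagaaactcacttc
Locus in an intron of Pnpla5, chr15:83951526-83951725: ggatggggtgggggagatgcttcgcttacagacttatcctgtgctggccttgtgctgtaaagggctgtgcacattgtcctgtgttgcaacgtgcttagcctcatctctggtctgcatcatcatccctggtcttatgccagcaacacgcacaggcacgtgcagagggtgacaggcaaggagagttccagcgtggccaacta
Intergenic locus near Adam2, chr14:66698450-66698649: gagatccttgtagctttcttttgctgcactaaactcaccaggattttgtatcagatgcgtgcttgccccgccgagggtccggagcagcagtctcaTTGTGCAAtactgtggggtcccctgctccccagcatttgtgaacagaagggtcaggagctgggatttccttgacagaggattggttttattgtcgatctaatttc
Locus in an intron of Ccdc132, nearest TSS Vps50, chr6:3497851-3498050: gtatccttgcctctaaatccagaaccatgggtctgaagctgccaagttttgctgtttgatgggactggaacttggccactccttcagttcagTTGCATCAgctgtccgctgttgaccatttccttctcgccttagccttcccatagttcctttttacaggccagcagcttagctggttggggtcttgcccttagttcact

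The CD-only loci were mostly low peaks. Height is the HOMER tag count of a peak scaled by the authors, and 1 unit stood for 2 sequenced tags in each of the 4 lists. At the CD-only loci the height was 11 in the median in CD replicate 1, with the middle 50% between 8.5 and 16, and 9.5 in CD replicate 2, with the middle 50% between 7.5 and 12.5. At the loci in all 4 lists the median heights were 37.5 and 25 in the same lists, and at the LD-only loci they were 11 and 12.5 in the LD lists. The lists themselves differed: CD replicate 1 held 41713 peaks with a median height of 13 and CD replicate 2 held 46371 with a median of 8.5, against 38281 and 39310 LD peaks with medians of 11.5 and 12.5. The lowest height in every list was 5.

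**Figure D1:**
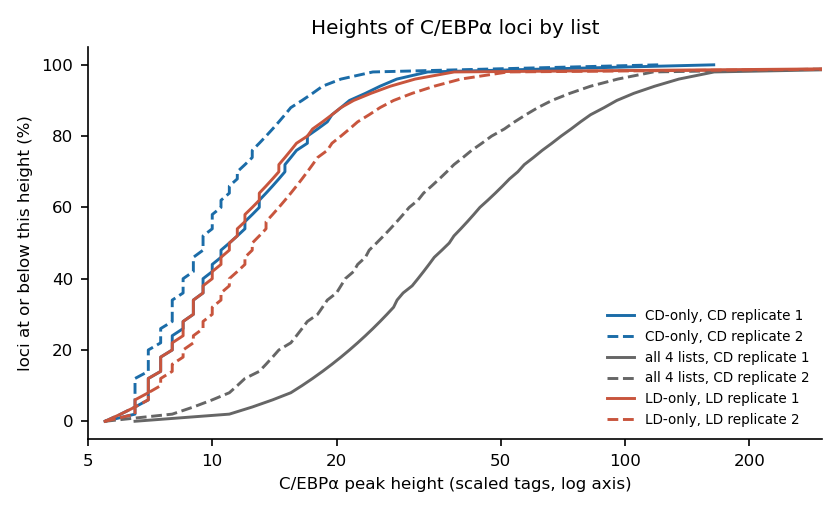
Cumulative share of C/EBPα loci (%, vertical axis) by peak height (scaled tags, log axis) in single lists: CD-only loci in the CD lists, LD-only loci in the LD lists and loci of all 4 lists in the CD lists. The CD-only curves lie to the left of the curves for loci found in all 4 lists, with medians of 11 and 9.5 against 37.5 and 25.

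Of the 1723 loci, 776 (45.0%) had a mean height under 10 over both CD lists, and 577 were under 10 in both. At the upper end 64 exceeded 20 in both lists and 6 exceeded 50 in both. Only 21 reached a mean height above 31, the median of the loci found in all 4 lists, whereas the median of the CD-only loci was 10.5. The heights of the CD samples ran together across the loci, with a Spearman correlation of 0.687 over 1723 CD-only loci and 0.908 over the 13813 loci in all 4 lists, as a description across places of the same genome.

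The rule was a threshold on peaks. Loci just outside it that held 1 LD peak were higher on CD than the CD-only loci, and loci in a single CD list were lower. The 1263 loci found in both CD lists and in LD replicate 1 had median heights of 18 and 13.5 on CD and 10.5 in the LD sample, and the 1256 found in both CD lists and LD replicate 2 had 17 and 13 on CD and 11 on LD. The 6 CD-only loci of lowest mean height stood at 6. A further 16797 loci were called in CD replicate 1 alone and 25271 in CD replicate 2 alone, with medians of 7.5 and 7. Across all loci 64460 (66.1%) were in a single list. The 4 patterns with 1 LD and 1 CD list held between 825 and 1689 loci each, next to the 1723 with both CD lists and the 5045 with both LD lists.

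CD-only loci lay nearer to promoters than LD-only loci. The median distance to the nearest transcription start site (TSS) was 21.3 kb for CD-only loci, 26.985 kb for LD-only loci, 17.8 kb for loci in all 4 lists and 30.4 kb over all loci. Within 1 kb of a TSS lay 275 CD-only loci (15.96%), against 6.88% of LD-only loci, 15.1% of loci in all 4 lists and 8.74% of all loci. In the annotation 785 CD-only loci fell in introns (45.6%), 782 between genes (45.4%) and 156 on exons (9.05%). A TSS lay within 50 kb of 1188 of them (68.9%), and 535 had none. The X chromosome held 30 CD-only loci, 1.74% of them against 0.906% of all loci, while no CD-only locus was on Y.

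Few of the loci lay together. Joined at 50 kb, 220 loci formed 105 clusters and 1503 stood alone, and 9 clusters held 3 or more loci. The cluster with the most loci, chrX:137023705-137099687, held 4 between the TSSs of Prps1, an enzyme of nucleotide synthesis, and Tsc22d3, a glucocorticoid-induced gene. Those nearer to Prps1 were intergenic and those nearer to Tsc22d3 lay in introns. The heights of the cluster's loci in CD replicates 1 and 2 were 12 and 8, 25.5 and 16.5, 26.5 and 12.5, and 7.5 and 7 from left to right (the outer ones chrX:137023705-137024019 and chrX:137099248-137099687, the inner ones chrX:137060166-137060486 and chrX:137078433-137078747). Another 3 loci lay within chr10:5724656-5789531 around Esr1, the gene of the oestrogen receptor α, and 3 lay within chr5:30481768-30558821, the first of them on the shared promoter of Hadha and Hadhb, the subunits of the mitochondrial trifunctional protein.

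The C/EBP string TTGCNNAA was less frequent in CD-only loci than in LD-only loci or loci of all 4 lists, and its share was near that over all loci. In the central 200 bp of a locus this string, searched on both strands, occurred in 27.2% of 1720 CD-only windows, 43.1% of LD-only windows, 46.7% of windows of loci in all 4 lists and 25.3% over all loci. The composite TGATGCAA occurred in 4.53%, 4.52%, 5.19% and 2.90% of the same windows, so its share at CD-only loci was near that of both other classes. HNF4 (CAAAGNNCA) was found in 8.26% of CD-only windows against 12.8% of LD-only windows and 8.37% over all loci, AP-1 (TGANTCA) in 5.58% against 9.15% and 7.01%, and HNF6 (ATCGAT or ATTGATT) in 5.17% against 6.41% and 4.03%.

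The C/EBP string was also counted within splits by distance, height and H3K27ac. Among loci over 1 kb from a TSS the shares were 28.8% for CD-only, 44.1% for LD-only and 48.2% for loci in all 4 lists. In the lower, middle and upper height group of CD-only loci they were 25%, 31.1% and 25.3%, and loci of all 4 lists whose mean height fell in the range of the middle group had 45.4%. CD-only loci with H3K27ac in every sample matched in 19.97% and those with H3K27ac in none in 33.0%. All shares are descriptions of letters in a window and say nothing of binding.

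Other strings, chosen after the data had been seen, had higher shares at CD-only loci than in the other classes when all distances to a TSS were pooled. The E-box CACGTG, the string bound by basic helix-loop-helix factors, was present in 6.98% of CD-only windows, 2.38% of LD-only windows, 5.12% of windows of loci in all 4 lists and 3.99% over all loci. The GC box GGGCGG was present in 11.1%, 2.64%, 8.99% and 5.73%, the ETS string CCGGAAG in 2.79%, 0.992%, 2.33% and 1.62%, and the cyclic AMP response element TGACGTCA in 0.814%, 0.119%, 0.514% and 0.405%. Over 1 kb from a TSS the E-box stood at 7.32% of CD-only windows, 2.24% of LD-only windows and 4.76% of windows of loci in all 4 lists, but within 1 kb it stood at 5.15%, 4.32% and 7.14%, beside 6.25% of all loci there. In the same order the ETS string stood at 1.31%, 0.554% and 1.13% over 1 kb away and at 10.7%, 6.92% and 9.11% within 1 kb. The GC box stood at 6.15%, 1.43% and 4.57% and at 37.5%, 19.0% and 33.8%. Base composition moved with the class: the median GC content was 51% at CD-only loci, 42% at LD-only loci and 49% at loci in all 4 lists, and its part in these shares was not tested.

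**Figure D2:**
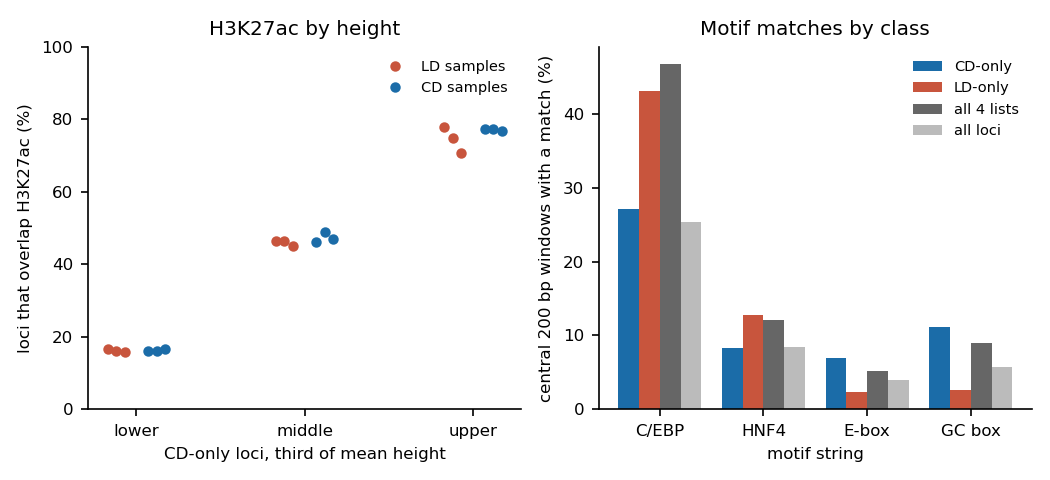
Left, share of CD-only loci that overlap H3K27ac (%) in each of 3 LD and 3 CD samples by group of mean C/EBPα height, 1 point per sample. Right, share of central 200 bp windows (%) with a match to a motif string by class of loci. The H3K27ac shares climb from 15.8–16.5% in the lower to 70.6–77.9% in the upper height group in samples of both diets, and the C/EBP bar of the CD-only loci (27.2%) is near that of all loci (25.3%).

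Before any scaling for the size of the lists, H3K27ac was present at CD-only loci at similar shares on both diets. A SICER interval overlapped 46.7%, 45.6% and 43.5% of the 1723 loci in LD replicates 1 to 3 and 46.3%, 47.1% and 46.4% in CD replicates 1 to 3. The ranges overlapped, since LD replicate 1 was above CD replicates 1 and 3. The mean was 46.6% ± 0.473 (SD, n = 3) on CD and 45.3% ± 1.59 (SD, n = 3) on LD, a difference of 1.33 percentage points (two-sided exact permutation test, p = 0.3, with 0.1 the smallest p that 3 against 3 samples can give). The same difference was -1.52 points at the loci in all 4 lists, -4.51 at the LD-only loci and -1.50 over all loci. Among these classes the CD-only loci alone had the higher mean share on CD. The LD intervals covered 149.8 to 160.4 Mb and the CD intervals 139.7 to 145.4 Mb, and the shares above were not scaled for this.

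The height of a CD-only locus and its distance to a promoter went with H3K27ac on both diets. In the lower height group (581 loci, mean heights 6 to 8.75) the samples lay between 15.8% and 16.5%. In the middle group (580 loci, 9 to 12.5) they lay between 45.0% and 49.0%, and in the upper group (562 loci, 12.75 to 142.25) between 70.6% and 77.9%. Within 1 kb of a TSS between 87.3% and 90.2% of the CD-only loci carried the mark, and farther away between 35.1% and 39.3%, against 76.2% to 79.4% of the loci in all 4 lists at that distance.

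**Figure D3:**
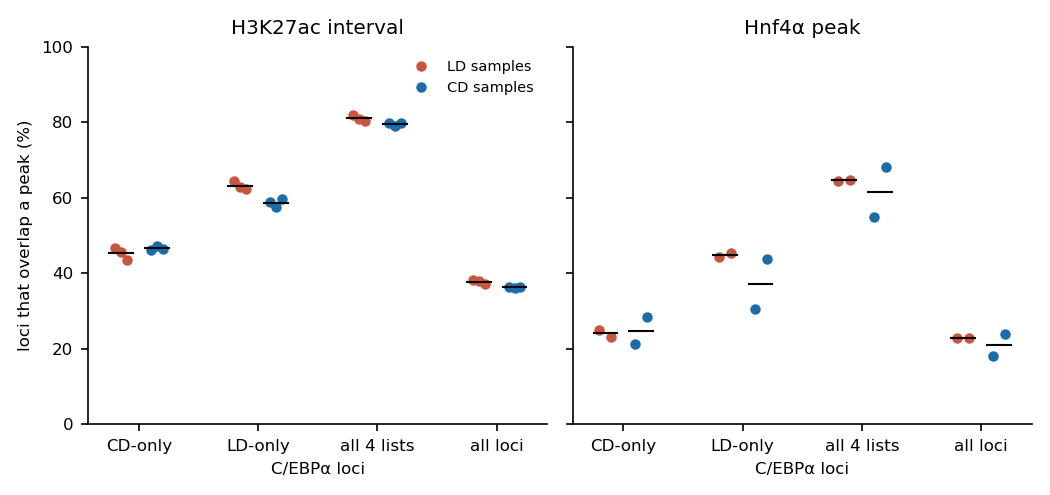
Share of C/EBPα loci (%) that overlap an H3K27ac interval (left, 3 samples per diet) or an Hnf4α peak (right, 2 samples per diet) by class of loci. Points are samples and black bars are the means of a diet, and at CD-only loci the LD and CD points overlap in both panels, from 43.5% to 47.1% for H3K27ac and from 21.1% to 28.4% for Hnf4α.

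Locus by locus, 661 CD-only loci (38.4%) carried H3K27ac in every sample of both diets and 809 (47.0%) in none. In 7 (0.406%) the mark was in all 3 CD samples and no LD sample, beside 0.215% of all C/EBPα loci, and in 5 (0.290%) it was in all 3 LD samples and no CD sample, beside 0.653% of all loci. The mean heights of the 7 loci ran from 9.5 to 14.25, in the middle and upper height groups. At chr14:66698392-66698706, intergenic and 1.786 kb from the TSS of Adam2, a testis gene, the heights were 12.5 and 16. At chr10:94462396-94462776, intergenic and 55.184 kb from Plxnc1, a semaphorin receptor, they were 15 and 8.

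The other loci marked on CD alone were chr11:11821910-11822406, 23.8 kb from Ddc, the aromatic amino acid decarboxylase (heights 10.5 and 11.5), chr14:11964598-11965026 in an intron of Fhit (12 and 12.5), chr5:124402719-124403042 in an intron of Ccdc62 (12.5 and 12), chr6:3497787-3498113 in an intron of Vps50, annotated as Ccdc132 and 49.4 kb from its TSS (15.5 and 8.5), and chr16:18052776-18053192 on an exon of Dgcr6 (10.5 and 8.5). Of the 9 tested genes within 50 kb of the 7 loci, 1 was called, lower on CD, beside 13.9% of all tested genes called in that direction and 11.2% in the other. It was Fhit, a diadenosine hydrolase. Its CPM was 4.68, 2.94, 4.66, 4.85 and 3.47 in the LD libraries and 3.41, 3.11, 2.40, 2.45 and 3.32 in the CD libraries, which overlapped (log2 fold change of CD over LD -0.48 ± 0.17, SE, edgeR adjusted p = 0.0466), and the call was lost without LD replicate 1, 3 or 4 or CD replicate 2, 3, 4 or 5.

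Ephx2, a soluble epoxide hydrolase 44.7 kb from the locus near Adam2, stood at 1216 ± 134 CPM on LD and 1208 ± 80.0 on CD (SD, n = 5), and Ddc at 51.0 ± 9.76 and 57.2 ± 6.33. Neither was called. The 5 loci marked on LD alone lay nearest to Ptprc, the leukocyte antigen CD45 (chr1:140033035-140033402, heights 9.5 and 9.5), Marcks (chr10:36911741-36912055, 11.5 and 7.5), Mirt1 (chr19:53551274-53551606, 8 and 6), Rad23b (chr4:55298557-55298909, 7.5 and 6.5) and Cadm1 (chr9:47367048-47367551, 10 and 7).

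Hnf4α peaks overlapped CD-only loci at shares close to those over all loci and below those of loci in all 4 lists, and 2 samples a group could not show a difference between diets. The share with an Hnf4α peak was 24.8% in LD replicate 1, 23.2% in LD replicate 2, 21.1% in CD replicate 1 and 28.4% in CD replicate 2. The CD samples lay on both sides of the LD samples. CD replicate 1 had the smallest Hnf4α list, 35143 peaks against 44247 to 47992 in the other samples. Its share was also the lowest over all loci and at loci in all 4 lists. The means were 24.8% ± 5.13 (SD, n = 2) on CD and 24.0% ± 1.15 (SD, n = 2) on LD, a difference of 0.725 points (two-sided exact permutation test, p = 1, with 0.33 the smallest possible). Without CD replicate 2 the difference was -2.90 points and without LD replicate 2 it was -0.0871, so its direction rested on single samples. At loci in all 4 lists the shares were 55.0% to 68.3%, and over all loci 18.1% to 23.9%.

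Hnf4α went with height and with H3K27ac. In the CD samples the mean share was 9.81% in the lower, 24.1% in the middle and 40.8% in the upper height group. Of the 661 loci with H3K27ac in every sample 180 (27.2%) held an Hnf4α peak in all 4 samples, and of the 809 loci with H3K27ac in none 21 (2.60%) did, where the respective shares at loci of all 4 C/EBPα lists were 54.9% and 16.4%. The median C/EBPα height was 13.75 in the first set and 8.5 in the second.

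In all, 243 CD-only loci (14.1%) had an Hnf4α peak in every sample and 1094 (63.5%) in none. An Hnf4α peak in both CD and no LD samples was found at 18 loci (1.04%), beside 0.633% of all C/EBPα loci, and one in both LD and no CD samples at 14 (0.813%), beside 1.43% of all. The highest of the 18 was chr1:40293640-40293958 in an intron 11.7 kb from the TSS of Il1r1, the interleukin 1 receptor, with C/EBPα heights of 33 and 15, and the highest of the 14 was chr15:88726814-88727149, 34.2 kb from Pim3, with 35.5 and 21.5. At the 243 loci the median Hnf4α height was 33 and 29.2 on LD against 21.5 and 40.8 on CD, so the CD samples again lay on both sides. Both CD heights were above both LD heights at 10 of them (4.12%, beside 1.75% of all loci with 4 Hnf4α peaks) and both LD heights above both CD heights at 30 (12.3%, beside 16.7%).

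RNA was then compared between diets around the loci. The count table held 25494 genes, of which 2740 had a TSS within 50 kb of a CD-only locus, 1878 of the latter passed the filter on low counts and 862 did not, and 1015 of the loci had a tested gene in reach. In this bulk tissue fewer cells of a type and less RNA per cell cannot be told apart. A gene was called when edgeR's quasi-likelihood test gave an adjusted p under 0.05 and the fold change exceeded 1.2. Near the CD-only loci 261 genes (13.9%) were called higher on CD, beside 11.2% of all 13494 tested genes, and 230 (12.2%) were called higher on LD, beside 13.9% of all tested genes. The median log2 fold change of CD over LD was 0.031 near the loci and 0.0017 over all genes.

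The share called higher on CD was also taken at other distances. It was 15.9% of 931 tested genes within 20 kb, 16.5% of 272 genes with a TSS within 1 kb and, at any distance, 18.4% of the 1108 genes that were nearest to some CD-only locus, while 11.4%, 9.56% and 11.9% of these were called higher on LD. The nearest genes of LD-only loci gave 15.6% higher on CD and 15.2% higher on LD, those of the loci in all 4 lists 15.3% and 13.8%, and those of all loci 11.8% and 13.9%. These lists share genes with one another, and the differences between them were not tested.

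**Figure D4:**
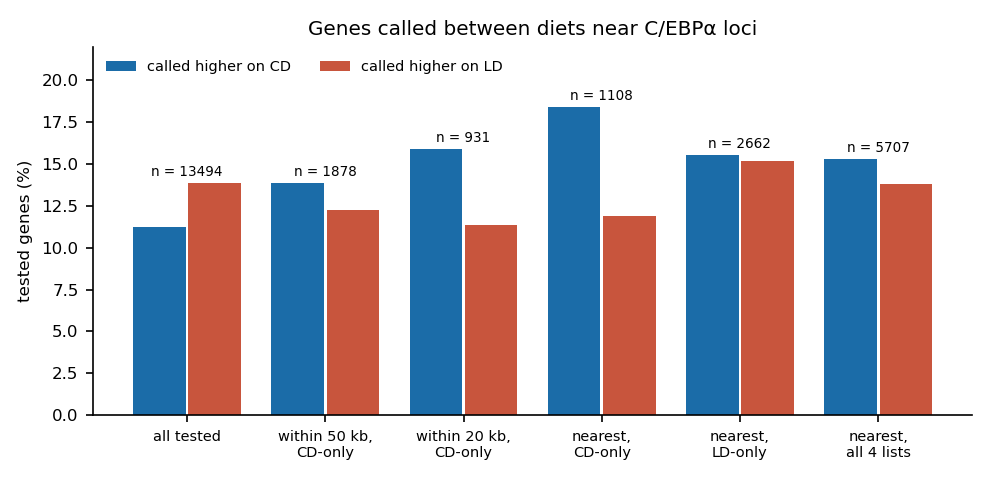
Share of tested genes (%) called higher on CD (blue) or on LD (red) by edgeR, for all tested genes and for genes near C/EBPα loci of a class, with the number of tested genes above each pair of bars. The pair for genes nearest to CD-only loci stands at 18.4% and 11.9%, and the pair for all tested genes at 11.2% and 13.9%.

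Other splits of the loci were counted in the same way. Within 50 kb of loci of the lower, middle and upper height group 10.98%, 15.3% and 14.95% of tested genes were higher on CD and 9.31%, 13.4% and 12.6% higher on LD. Near CD-only loci with H3K27ac in every sample 174 of 1160 tested genes (15%) were higher on CD and 12.2% higher on LD, and near those with H3K27ac in none 53 of 518 (10.2%) and 11.8%. Of 145 genes with 2 or more CD-only loci within 50 kb, 28 (19.3%) were higher on CD and 15 (10.3%) higher on LD. For 1182 genes near a CD-only but no LD-only locus the counts were 155 (13.1%) and 139 (11.8%), beside 11.2% and 13.9% of all tested genes. The 5 CD libraries lay above all 5 LD libraries in 203 of the 1878 genes (10.8%), beside 8.35% of all tested genes, and the LD libraries above the CD libraries in 147 (7.83%), beside 10.2%.

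The 12 called genes near CD-only loci with the largest fold changes toward CD were Adgrf1, Hsd3b5, Serpina9, Serpina4-ps1, Grm8, Pnpla5, Pnpla3, Ces4a, Smad9, Ces3b, Mup16 and Selenbp2, with log2 fold changes from 5.69 down to 1.51. In each of them all 5 CD libraries lay above all 5 LD libraries. Several belong to families of near-identical copies (Serpina, Ces, Mup, Hsd3b), and the counting options that the study lists name none for read pairs with several alignments, which featureCounts leaves out by default, so the values of single copies are uncertain. Adgrf1, Serpina9, Grm8, Pnpla5 and Ces4a had a mean under 1 CPM on LD, and Ubd, Gprc5b, Als2cr12, Shc2 and Ear2 below had one on CD. Those 10 met the naming minimum of 1 CPM through the other diet alone, so they had to differ to be named, and their values are given as a description with no p.

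Adgrf1 encodes an adhesion G protein-coupled receptor. A CD-only locus, chr17:43407312-43407652, lay 16 bases (0.016 kb) from its TSS, in an intron of the gene, annotated as Gpr110, with heights of 22.5 and 12.5. The gene had 1.03, 0.956, 0.155, 0.243 and 0 CPM in LD replicates 1 to 5 and 28.0, 28.1, 11.1, 39.1 and 22.6 in CD replicates 1 to 5. No library of one diet reached the range of the other (log2 fold change 5.69 ± 0.58, SE). H3K27ac covered the locus in 1 of 3 LD and 3 of 3 CD samples, and Hnf4α peaks were there in all 4 samples. Its tested contacts by PCHi-C, Cd2ap on CD and Tnfrsf21 on both diets, were not called, at 57.0 ± 9.07 and 9.59 ± 1.86 CPM on LD and 59.3 ± 4.94 and 9.20 ± 1.01 on CD (SD, n = 5).

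Hsd3b5, a 3-keto-steroid reductase of male mouse liver, had 18.4, 29.2, 1.61, 0.243 and 0.112 CPM on LD and 429, 393, 408, 442 and 360 on CD. The LD libraries spread widely, with replicates 1 and 2 the highest, and the CD libraries lay close together (log2 fold change 5.34 ± 1.18, adjusted p = 0.0111, and 6.29 without LD replicate 2). Its locus, chr3:98446700-98447057, lay 2.4 kb away with heights of 8.5 and 7, without H3K27ac, Hnf4α or an interaction in any list, and its printed window holds the C/EBP string TTGGGCAA.

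On chromosome 12 the Serpina cluster of liver protease inhibitors held high CD-only loci. The locus chr12:105231257-105231590 (heights 41.5 and 30.5) lay 3.09 kb from Serpina11 and 20.3 kb from Serpina9, and chr12:105307817-105308138 (58.5 and 35) lay 8.03 kb from Serpina4-ps1, a pseudogene, and 25.2 kb from Serpina12. Serpina9 was near the floor, at 0.135, 0.0503, 0.0931, 0.0303 and 0.0280 CPM on LD and 0.924, 1.49, 1.201, 1.14 and 0.378 on CD. It met the naming minimum through a CD mean of 1.03 CPM, beside 0.067 on LD. Serpina4-ps1 stood at 6.14, 12.2, 3.69, 0.637 and 1.26 CPM on LD and at 26.99, 34.3, 31.5, 124 and 31.4 on CD. CD replicate 4 was far above the others, and the log2 fold change of 3.35 ± 0.80 (adjusted p = 0.0153) became 2.68 without it and 4.07 without LD replicate 2.

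The more abundant neighbours moved less. Serpina11 rose from 41.5 ± 7.03 CPM on LD to 61.7 ± 5.57 on CD (SD, n = 5, log2 fold change 0.57 ± 0.11, adjusted p = 0.00242) and Serpina12, an insulin-sensitising serpin, from 143 ± 10.5 to 208 ± 30.0 (0.54 ± 0.10, adjusted p = 0.00128). Serpina1e, 36.2 kb from the first locus, was at 704, 1357, 211, 66.8 and 53.5 CPM on LD and 2379, 2266, 1918, 2175 and 1417 on CD. It did not pass the test (adjusted p = 0.114) although the libraries did not overlap. Serpina3n, a gene of the acute phase that both loci contact by PCHi-C, was lower on CD (360 ± 46.4 on LD, 277 ± 14.2 on CD, -0.38 ± 0.09, adjusted p = 0.00589). H3K27ac covered the first locus in 2 LD and 3 CD samples and the second in all 6, and Hnf4α was found at the second alone, in all 4 samples.

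Pnpla5 and Pnpla3, patatin-like lipases of which Pnpla3 acts on lipid droplets, lie next to each other on chromosome 15. The locus chr15:83951468-83951782, with heights of 24.5 and 16.5, was in an intron of Pnpla5, 1.82 kb from its TSS and 46.5 kb from that of Pnpla3. Pnpla3 had 2.30, 3.93, 4.66, 3.70 and 4.67 CPM on LD and 30.2, 20.05, 14.1, 14.6 and 16.04 on CD. The lowest CD library was above the highest LD library (log2 fold change 2.30 ± 0.25, adjusted p = 9.22e-05).

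Pnpla5 had 0.622, 0.478, 0.652, 1.001 and 1.09 CPM on LD and 11.7, 7.94, 2.96, 2.89 and 4.57 on CD, with no overlap (2.97 ± 0.46). The fragment of the locus, which is the bait of Pnpla5, contacted the promoter of Pnpla3 in both interaction lists, with CHiCAGO scores of 6.73 on CD and 7.08 on LD. H3K27ac covered the locus in 1 LD and 3 CD samples and Hnf4α in all 4. Its printed window holds an E-box.

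Grm8, a metabotropic glutamate receptor, was at 0.272 ± 0.128 CPM on LD and 2.72 ± 1.21 on CD (SD, n = 5, log2 fold change 3.28 ± 0.36), with a locus 0.861 kb from its TSS that carried neither H3K27ac nor Hnf4α. Smad9, a mediator of bone morphogenetic protein signals, rose from 2.96 ± 1.37 to 12.9 ± 4.67 (2.10 ± 0.32), with a locus 0.877 kb away. Ces3b, a liver carboxylesterase, rose from 146 ± 62.0 to 483 ± 49.9 (1.73 ± 0.26) and Ces4a was at 0.350 ± 0.162 and 1.52 ± 0.320 (2.11 ± 0.28), both near chr8:107617880-107618288, a locus of heights 12.5 and 8. Mup16, a major urinary protein, rose from 16.9 ± 11.2 to 48.4 ± 10.6 (1.51 ± 0.43), and this call was lost without LD replicate 3 or 5 or CD replicate 3, 4 or 5. Selenbp2, a selenium-binding protein whose TSS lies inside a CD-only locus of heights 10.5 and 8, rose from 50.6 ± 26.8 to 144 ± 22.7 (1.51 ± 0.33). As in Hsd3b5, LD replicates 1 and 2 were the highest LD libraries in Ces3b (231 and 187 CPM), Mup16 (33.9 and 21.9) and Selenbp2 (92.1 and 58.4).

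**Figure D5:**
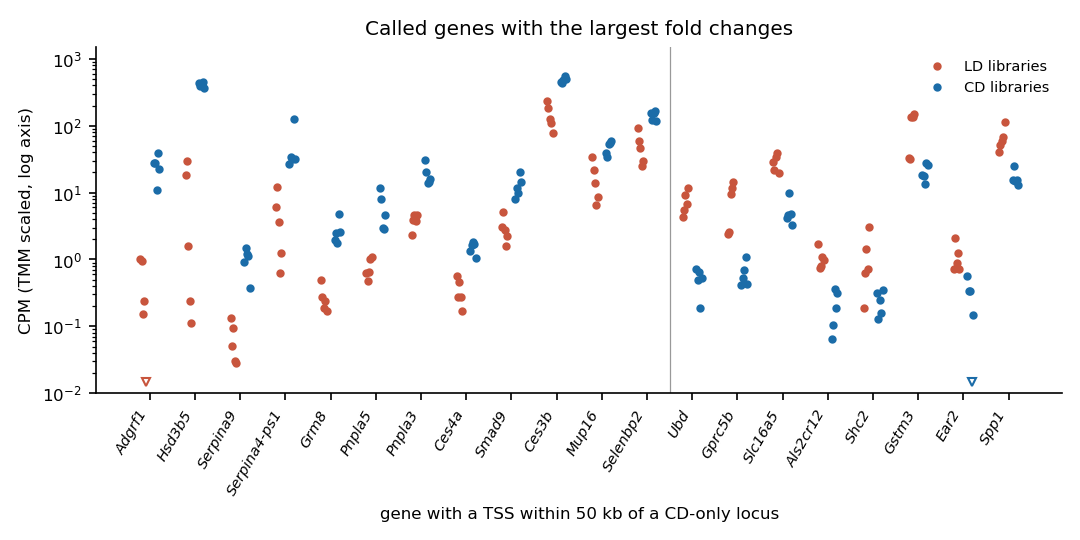
CPM (TMM scaled, log axis) of the 12 called genes with the largest fold changes toward CD (left of the line) and the 8 toward LD (right) among genes within 50 kb of a CD-only locus, 1 point per library, 5 per diet. Open triangles at the lower edge are libraries with 0 counts. The LD and CD points are apart in every gene but Shc2, where 1 LD library, 0.189 CPM, lies inside the CD range.

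Genes near CD-only loci were also called higher on LD, and the 8 with the largest fold changes were Ubd, Gprc5b, Slc16a5, Als2cr12, Shc2, Gstm3, Ear2 and Spp1. Ubd, the ubiquitin-like protein FAT10 of inflamed tissue, had 4.25, 5.54, 9.31, 6.82 and 11.5 CPM on LD and 0.733, 0.496, 0.642, 0.191 and 0.524 on CD. All LD libraries were above all CD libraries (log2 fold change -3.84 ± 0.34). Its locus, chr17:37340567-37340881, had heights of 8.5 and 10 and no H3K27ac in any sample. This locus and chr17:37004164-37004478 contacted the Ubd promoter in the CD list alone, with a top score of 6.90.

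Spp1, which encodes osteopontin, had 41.0, 50.6, 58.2, 68.6 and 114 CPM on LD and 15.4, 25.2, 14.7, 15.5 and 13.2 on CD (-1.98 ± 0.29, adjusted p = 0.00117), with no overlap. Gstm3, a glutathione transferase with close copies, had 33.4, 31.4, 136, 133 and 150 CPM on LD and 18.4, 17.96, 13.5, 27.3 and 25.8 on CD (-2.23 ± 0.52, adjusted p = 0.0132). LD replicates 1 and 2 were close to the CD libraries and the other LD libraries far above them. Gprc5b, an orphan receptor, split the LD libraries the same way, at 2.41 and 2.62 against 9.37, 11.9 and 14.2 CPM, with 0.630 ± 0.275 on CD (-3.68 ± 0.63).

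Slc16a5, a monocarboxylate transporter, fell from 28.5 ± 8.07 CPM on LD to 5.36 ± 2.63 on CD (SD, n = 5, -2.40 ± 0.31). Als2cr12 was at 1.07 ± 0.392 on LD and 0.208 ± 0.131 on CD (-2.34 ± 0.39) and Ear2, an eosinophil ribonuclease, at 1.13 ± 0.561 and 0.279 ± 0.217 (-2.02 ± 0.49). Shc2, a signalling adaptor at 1.205 ± 1.11 and 0.242 ± 0.0959 CPM, differed by -2.30 ± 0.70 on the log2 scale and by -1.60 without LD replicate 5, and the call was lost without LD replicate 3 or CD replicate 1, 2, 3 or 4.

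Some markers of other cells were called between diets in the same libraries, and the summed levels of the lists overlapped between diets. Beside them 13.9% of all tested genes were called higher on LD. Of 9 markers of Kupffer cells and macrophages 3 (Ccr2, Cd68, Itgam) were higher on LD, and their summed level was 441 to 1143 CPM on LD and 338 to 667 on CD. Of 6 stellate cell markers 3 (Col1a1, Col3a1, Dcn) were higher on LD, with sums of 675 to 975 and 568 to 698 CPM. Of 5 endothelial and 6 lymphocyte markers 1 each was higher on LD (Lyve1, Cd8a), and none of 5 cholangiocyte markers was called. The 6 hepatocyte markers summed to 94883 to 112114 CPM on LD and 103309 to 114904 on CD with Serpina1c alone called, higher on CD. No adipocyte marker passed the filter, and Lep and Plin1 were at 0. The part of these cells in the values above was not tested.

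Among the gene lists, lipogenesis had the most genes higher on CD. Of its 20 genes 10 were called higher on CD and 1 higher on LD, beside 11.2% and 13.9% of all tested genes, and 6 had a CD-only locus within 50 kb, where 13.9% and 12.2% of tested genes were called in these directions: Acacb, G6pdx, Mlxipl and Pnpla3 rose on CD while Elovl5 and Fads1 were not called. Mlxipl encodes ChREBP, the carbohydrate-responsive activator of lipogenesis. It had 43.8, 32.1, 42.1, 40.4 and 41.5 CPM on LD and 73.8, 79.6, 87.3, 94.3 and 81.9 on CD, with no overlap (log2 fold change 1.06 ± 0.09, adjusted p = 9.91e-06). The locus, chr5:135552403-135552717, was 30.0 kb away with heights of 8 and 11, and H3K27ac covered it in 1 LD sample alone.

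Acacb, the mitochondrial acetyl-CoA carboxylase, had 132, 117, 166, 133 and 144 CPM on LD and 306, 295, 195, 258 and 307 on CD (0.98 ± 0.13, adjusted p = 0.000182), again apart, with a locus of heights 8.5 and 10 that was 0.322 kb from the TSS and carried no H3K27ac in any sample. G6pdx, the first enzyme of the pentose phosphate pathway, had 8.09, 12.5, 8.13, 8.07 and 6.85 on LD against 18.7, 17.1, 9.11, 24.6 and 13.8 in the CD libraries, of which replicate 3 was below LD replicate 2 (0.93 ± 0.24, adjusted p = 0.016). Elovl5, an elongase of polyunsaturated fatty acids, was at 1673 ± 318 on LD and 1277 ± 237 on CD (-0.39 ± 0.15, adjusted p = 0.0685), a value that was called without LD replicate 1 or 2 or CD replicate 5. Fads1, a desaturase of the same pathway, was at 784 ± 73.4 and 716 ± 97.4 (adjusted p = 0.357).

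Of 5 genes of carbohydrate metabolism near CD-only loci 2 were called, both higher on CD, where the whole list of 20 had 3 in each direction, close to the 11.2% and 13.9% of all tested genes. G6pc, the last enzyme of glucose output and one of the C/EBPα targets, had 289, 190, 253, 241 and 286 CPM on LD and 567, 633, 884, 432 and 372 on CD. All CD libraries were above all LD libraries (1.199 ± 0.22, adjusted p = 0.00234). Its locus, chr11:101204084-101204398, was 24.6 kb away with heights of 18 and 13 and no H3K27ac.

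Ppp1r3c, which directs phosphatase to glycogen, had 44.5, 53.5, 52.1, 70.6 and 72.9 CPM on LD and 167, 159, 83.2, 61.8 and 96.1 on CD, so CD replicate 4 fell inside the LD range (0.95 ± 0.28, adjusted p = 0.0313), and the call was lost without LD replicate 1, 2 or 3 or CD replicate 1 or 2. Its locus was higher than most, 32.5 and 25, with H3K27ac and Hnf4α in every sample. Pck1, the enzyme before G6pc in glucose output, was at 1077 ± 324 on LD and 1508 ± 463 on CD (adjusted p = 0.198) and was called without CD replicate 5. Pygl and Pfkfb1 were not called (adjusted p = 0.0679 and 0.486).

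Of 16 genes of fatty acid oxidation 10 were higher on LD and none on CD, beside 13.9% and 11.2% of all tested genes, and 3 lay near CD-only loci. Acadm, the medium-chain acyl-CoA dehydrogenase, had 519, 473, 544, 575 and 520 CPM on LD and 337, 304, 362, 337 and 370 on CD (-0.62 ± 0.08, adjusted p = 0.000105), with no overlap and a locus of heights 12.5 and 12.5 inside the gene. Hadha and Hadhb share the locus chr5:30481768-30482082, heights 19.5 and 10.5, at their common promoter. Hadha was at 511 ± 44.6 and 444 ± 18.8 CPM and Hadhb at 228 ± 17.4 and 192 ± 11.9 (SD, n = 5, LD then CD), with log2 fold changes of -0.20 ± 0.07 and -0.25 ± 0.07 and adjusted p = 0.0505 and 0.0185. Hadhb missed the fold threshold and passed it without LD replicate 1 or 2 or CD replicate 3.

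Of 17 hepatocyte transcription factors 6 were higher on CD and 2 on LD, beside 11.2% and 13.9% of all tested genes, and 5 had a CD-only locus within 50 kb. Nr5a2, which encodes LRH-1, had 51.4, 46.4, 52.3, 52.1 and 54.0 CPM on LD and 62.8, 66.5, 61.5, 64.0 and 61.9 on CD (0.31 ± 0.06, adjusted p = 0.00221), with no overlap. Onecut2 was at 52.7 ± 12.8 and 81.6 ± 21.5 (0.63 ± 0.21, adjusted p = 0.048), and the call was lost without any of LD replicates 2 to 5 or CD replicates 2 to 5. Ppara, the fatty acid receptor that drives oxidation genes, had 569, 438, 521, 564 and 430 CPM on LD and 365, 369, 396, 424 and 435 on CD. LD replicate 5 was below CD replicate 5 (-0.34 ± 0.09, adjusted p = 0.0158). Foxa1 and Nr1h4 were not called (adjusted p = 0.136 and 0.244), and Foxa1 was called without CD replicate 1.

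The clock list had 3 called genes among 16, all higher on CD, beside 11.2% of all tested genes, and these 3 were among the 5 list members within 50 kb of a CD-only locus, where 13.9% of tested genes were higher on CD. Nr1d1, the repressor REV-ERBα, had 18.9, 20.2, 22.9, 22.8 and 22.2 CPM on LD and 37.1, 40.9, 29.8, 51.3 and 42.6 on CD, with no overlap (0.91 ± 0.12, adjusted p = 0.000198). Bhlhe41, the repressor DEC2, had 1.43, 1.51, 2.11, 2.79 and 1.12 on LD against 2.49, 3.16, 2.71, 7.30 and 3.49 in the CD libraries, 2 of which were inside the LD range (1.099 ± 0.33, adjusted p = 0.0265). Its call was lost without LD replicate 1, 2 or 5. Cry2 was at 18.8 ± 3.22 and 23.9 ± 2.98 (0.35 ± 0.12, adjusted p = 0.0451), and was lost without LD replicate 2, 3 or 5 or CD replicate 2, 3, 4 or 5. Nfil3 and Nr1d2 were not called (adjusted p = 0.262 and 0.311). The study describes a common time of day for collecting the livers used in chromatin conformation assays, and the hour is not given in the sources used here.

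The remaining lists had few members near the loci, and their counts stand beside 11.2% and 13.9% of all tested genes higher on CD and on LD. In the sterol and bile acid list, with 4 genes higher on CD and 2 on LD, Sqle, the squalene epoxidase, lay near a locus and was at 103 ± 13.7 on LD and 77.7 ± 20.9 on CD (adjusted p = 0.101), called without CD replicate 1. Among 14 C/EBPα targets 4 were higher on CD and 1 on LD, and of the 3 near CD-only loci G6pc was called and Pck1 and Ttr were not. Of the C/EBP family 1 of 6 was called, Cebpe, at 9.00 ± 1.33 on LD and 5.80 ± 1.25 on CD (-0.63 ± 0.15, adjusted p = 0.00686), which was the one with a CD-only locus in reach.

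The genes of the factors themselves had no CD-only locus within 50 kb. Cebpa had 328, 288, 334, 355 and 299 CPM on LD and 391, 419, 362, 363 and 384 on CD. The libraries did not overlap, and the fold change of 1.198 (log2 0.26 ± 0.07, adjusted p = 0.0189) fell just short of the threshold of 1.2, which it passed without LD replicate 1, 3 or 4 or CD replicate 3 or 4. Hnf4a had 394, 372, 377, 459 and 397 on LD and 453, 507, 476, 475 and 480 on CD (fold change 1.196, adjusted p = 0.0165), with LD replicate 4 inside the CD range, and it passed without that library or CD replicate 1. Cebpb was at 36.9 ± 7.46 and 30.6 ± 5.23 (adjusted p = 0.184).

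The highest CD-only locus, chr12:74880292-74880606, was intergenic and 121.705 kb from the TSS of Hif1a, the oxygen-regulated factor. Its heights were 164 in CD replicate 1 and 120.5 in CD replicate 2, with no peak in either LD list. H3K27ac was present in all 6 and Hnf4α in all 4 samples, of both diets. PCHi-C linked it to the Hif1a promoter in the CD list alone, at a score of 7.78. Hif1a had 73.5, 80.6, 83.3, 71.7 and 82.3 CPM on LD and 84.1, 87.4, 85.8, 89.8 and 81.0 on CD, overlapping ranges that did not pass the test (0.13 ± 0.06, adjusted p = 0.145). Its printed window holds the AP-1 string and a GC box and no C/EBP string.

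The next in height, chr15:85602145-85602466 (102.5 and 77), lay in an intron of Ppara, 36.2 kb from its TSS, with H3K27ac and Hnf4α in every sample, and Ppara was lower on CD as given above. Cdpf1, 39.7 kb away, was higher on CD, at 3.70 ± 0.382 and 5.35 ± 0.874 CPM (0.53 ± 0.13, adjusted p = 0.00947). The locus chr8:27134343-27134657 (86 and 58.5) lay on a UTR of Hook3, and Fnta, Hgsnat and Pomk around it were not called. chr18:65262375-65262692 (73 and 52.5) lay in an intron of Nedd4l with no tested gene in reach, and its nearest TSS was that of Mir122, the liver microRNA, 145.823 kb away.

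At chr7:138592672-138592988 (74 and 51.5), in an intron of Fgfr2, the H3K27ac mark was in no LD and 2 CD samples and Hnf4α in 1 LD and 2 CD samples. Acadsb, a dehydrogenase of branched and short acyl-CoA 38.6 kb away, had 152, 138, 125, 111 and 115 CPM on LD and 172, 178, 184, 176 and 172 on CD. The diets did not overlap (0.46 ± 0.08, adjusted p = 0.00137). Ikzf5 beside it was also higher on CD (0.38 ± 0.13, adjusted p = 0.0464), with overlapping libraries, and lost its call without LD replicate 2, 3, 4 or 5 or CD replicate 1, 4 or 5.

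At chr17:57372374-57372695 (76 and 43.5), 4.82 kb from C3, the central complement protein, all samples of both diets carried H3K27ac and Hnf4α. C3 had 3672, 3374, 3236, 3987 and 3253 CPM on LD and 4012, 4803, 6344, 5088 and 4907 on CD, with CD replicate 1 just above LD replicate 4 (0.52 ± 0.11, adjusted p = 0.00454). Gpr108 was also higher on CD (0.26 ± 0.08, adjusted p = 0.0247), Vav1, a signalling protein of leukocytes, was higher on LD (-0.71 ± 0.21, adjusted p = 0.0254), and Trip10 was not called. The Gpr108 call was lost without LD replicate 3 or 5 or CD replicate 1, and the Vav1 call without CD replicate 3, 4 or 5. The CD list gave 1 interaction, with Slc25a23 at a score of 5.35, and the LD list 3 with a top score of 8.84, among them Slc25a23, Alkbh7 and Clpp.

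At chr13:69716064-69716379 (66.5 and 50), in introns of Nsun2 and Srd5a1, the tested genes within 50 kb were all higher on CD. Srd5a1, a steroid 5α-reductase, had 67.1, 47.6, 62.9, 59.3 and 59.2 CPM on LD and 150, 150, 145, 125 and 95.9 on CD (1.17 ± 0.12, adjusted p = 5.25e-05). Nsun2, an RNA methyltransferase, rose from 88.0 ± 4.44 to 112 ± 9.64 (0.35 ± 0.07, adjusted p = 0.00271) and Papd7 from 12.6 ± 0.673 to 16.01 ± 2.59 (0.35 ± 0.10, adjusted p = 0.0232), a call lost without LD replicate 5 or CD replicate 2 or 3. No library overlapped in any of the 3. The last of the highest, chr7:113851239-113851674 (69 and 44), lay among olfactory receptor genes with no tested gene in reach, and held H3K27ac and Hnf4α in every sample. The genes at these high loci were named for their place beside a locus and not for their fold change.

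Promoter contacts of the CD-only loci were alike in both interaction lists. A PCHi-C interaction (score of at least 5, up to 1 Mb) touched 547 loci (31.7%, 95% Wilson interval 29.6 to 34.0%) in the CD list and 522 (30.3%, 28.2 to 32.5%) in the LD list. These intervals cover counting error only, and with 1 pooled list per diet there is no replicate check. At the loci in all 4 C/EBPα lists the shares were 38.1% and 36.7%, at LD-only loci 30.6% and 29.2%, and over all loci 25.8% and 25.9%. In the CD list 329 of the CD-only loci lay at the far end of an interaction and 226 on a bait fragment, some of them on both.

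The CD-only loci formed 1438 pairs with promoters in the CD list and 1410 in the LD list, of which 1037 were in both, or 72.1% of the CD and 73.5% of the LD pairs. Over all loci these shares were 73.2% and 72.8%. In the CD list the loci contacted 1209 genes, 906 of them tested, with 130 (14.3%) higher on CD and 120 (13.2%) higher on LD, beside 12.3% and 13.9% of the tested contacts of all loci. Genes contacted in the CD list alone numbered 228 among those tested, with 20 (8.77%) higher on CD and 37 (16.2%) higher on LD, beside 11.4% and 13.5% for all loci. Genes contacted in the LD list alone numbered 191, with 20 (10.5%) and 25 (13.1%), beside 8.62% and 13.6% for all loci. Among the 686 tested contacts with no CD-only locus within 50 kb of the TSS, 98 (14.3%) were higher on CD and 93 (13.6%) on LD.

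Contacts of the genes named above were few. Elovl5 was contacted by 2 CD-only loci in both lists, with top scores of 10.53 on CD and 11.12 on LD, Serpina9 by 1 in both (11.38 and 11.71) and Ttr by 1 in both (9.74 and 8.54). Nr1d1 was contacted in the LD list alone, at 5.67, from the locus 33.0 kb away, and so were Cebpe, at 8.18, and Adgrf1, at 12.05. Foxa1 was contacted in the CD list alone, at 5.55. Most of these genes, among them Hsd3b5, Grm8, Mlxipl, Acacb, G6pc, Ppp1r3c and Ppara, had no contact with a CD-only locus in either list.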

How the data were processed

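The authors aligned ChIP-seq reads to mm9 with Bowtie 0.12.8, removed duplicates with Picard 1.110 and called peaks per sample, with HOMER against the input for C/EBPα and Hnf4α and with SICER for H3K27ac, whose files hold intervals alone. The deposited HOMER lists give tag counts per peak, a normalized signal (the height) and a fold over input as a ratio. Per the labels and the study's methods, RNA was aligned with STAR 2.5, and the deposited counts of read pairs per gene came from featureCounts 1.5.0-p1, stranded, with no listed option for read pairs with several alignments, which that tool leaves out by default. The authors' interaction score is that of CHiCAGO on pooled replicates, at least 5. A deposited table of TPM values with the authors' own comparison and the domain lists were not used here.

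The libraries of a diet come from separate animals, as far as the study's methods say, and LD and CD samples were grouped by the diet label. Peaks were joined on an overlap of at least 1 bp, and distances run from the nearest base of a locus to a TSS. Genes were compared with edgeR 4.0.16 in R 4.3.3 (TMM scaling, filterByExpr, robust quasi-likelihood test of 5 against 5, Benjamini-Hochberg adjustment, adjusted p under 0.05 and fold change above 1.2), with log2 fold changes as CD over LD. On simulated counts of 200 genes changed by a log2 value of 1 it recovered 191 with 14 false calls. Shares of loci were compared with exact permutation tests over samples. Sequences were read from the NCBIM37 (mm9) genome, and genes are those of the count table placed by the deposited coordinates.

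Members and lists were chosen with earlier results of these data known. The genes named are, within 50 kb of a CD-only locus and reaching a mean of 1 CPM in either diet, the 12 called with the largest fold change toward CD and the 8 toward LD; every gene there of the lists for lipogenesis, carbohydrate metabolism, fatty acid oxidation, sterol and bile acid, the C/EBP family, C/EBPα targets, hepatocyte transcription factors and the clock; and Cebpa, Cebpb and Hnf4a. The loci named are the 8 highest by mean height, the nearest to 6 of these genes and those with H3K27ac on CD alone; others named as highest or in a cluster, and the genes beside them, were chosen after their values were seen. DESeq2 1.42.0, other scaling, filters, distances, joining rules, heights, scores and windows, a replicate block and each sample left out in turn were the alternatives.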

Additional observations from a re-analysis of the deposited data

Results flagged for a closer look

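In 7 of 98 groups of 5 libraries 1 library stood far from the others by Dixon's 95% criterion, about the 1 in 20 that chance gives. Among the CD libraries Serpina4-ps1 was at 124 CPM in replicate 4 with the others between 26.99 and 34.3, Grm8 at 4.80 in replicate 4 (others 1.76 to 2.59) and Bhlhe41 at 7.30 in replicate 4 (others 2.49 to 3.49). Slc16a5 was at 9.94 in CD replicate 3 (others 3.23 to 4.80) and Spp1 at 25.2 in CD replicate 2 (others 13.2 to 15.5). Among the LD libraries G6pdx was at 12.5 in replicate 2 (others 6.85 to 8.13) and Hnf4a at 459 in replicate 4 (others 372 to 397).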

How the results depend on the processing

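The number of CD-only loci depended on the rule: 636 reached their list's median height in both CD lists, 43791 held at least 1 CD and no LD peak, and leaving out 1 C/EBPα sample gave 2982 to 27046. The counts of called genes stayed within 1.5 times the main ones (1215 to 1599 higher on CD and 1640 to 1906 higher on LD on leaving out 1 library). Beside 11.2% of all tested genes, the share higher on CD near the loci was 15.9% within 20 kb and 18.4% for nearest genes. It was 11.49% for loci with at least 1 CD peak, beside the same 11.2%. With no filter on counts it was 10.9% (8.24% of all genes then). It was 15.8% with no fold threshold and 11.2% to 14.7% on leaving out 1 sample. The share higher on LD was 9.60% with no filter and 10.4% to 13.9% on leaving out 1 sample. Dropping the filter or the fold threshold, or leaving out an RNA library, also moved the shares over all tested genes. Values under those settings are therefore not comparable with the main 11.2% and 13.9% of all tested genes. The H3K27ac difference stayed between 0.474 and 2.04 points on leaving out 1 sample, and the Hnf4α difference ran from -2.90 to 4.35, reversing to -0.0871 without LD replicate 2 and to -2.90 without CD replicate 2. Interactions touched 12.2% (CD list) and 11.1% (LD list) of the loci at a score of at least 10, 36.2% and 35.7% with the lowest peaks of each list left out before joining, and 41.7% and 39.9% at or above the list medians. The C/EBP string was in 20.1% of 100 bp windows and 33.0% of whole loci. The cause of these shifts was not tested.

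RNA replicate numbers did not pair the libraries, as same-numbered ones correlated by -0.0780 to 0.191. With a replicate block 1349 genes were higher on CD and 1834 on LD, and 12.2% and 11.9% near the loci (9.997% and 13.6% of all tested). The Hsd3b5 log2 fold change was 6.72 with the block. Of the 33 called genes that the rule for named genes gave, 7 lost their call in some alternative (Bhlhe41, Cry2, Mup16, Onecut2, Ppp1r3c, Serpina4-ps1, Shc2) and none changed direction. Serpina4-ps1 did so with the replicate block alone (edgeR, adjusted p = 0.0813, against 0.000187 with DESeq2 to 0.0425 with edgeR in the others). Of 13 called genes named for their place beside a locus, run after the data were seen, 5 lost their call in some alternative (Fhit, Gpr108, Ikzf5, Papd7, Vav1) and none changed direction. Beyond left-out libraries, Fhit and Ikzf5 lost it with the replicate block (edgeR, adjusted p = 0.0828 and 0.0831). Ikzf5 also lost it with no filter (edgeR, adjusted p = 0.0502).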
